A study of Drosophila melanogaster with 16 samples.

Results

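The data describe how the enrichment of an mRNA on tagged ribosomes of fru P1 neurons differed between adult males and females of Drosophila melanogaster. All 16 of the 16 RNA-seq libraries entered the comparison, with 4 in each of 4 groups, TRAP and total mRNA of each sex. In translating ribosome affinity purification (TRAP), ribosomes with a GFP::RpL10A subunit are pulled down together with the mRNA they are bound to, and total mRNA is a portion of the head lysate set aside before the pull-down. All groups were heads of flies 10 to 12 days old from collections of about 1000 sex-sorted flies, so a library is a pool and not 1 animal. Males and females of all 4 groups had the same genotype: fru P1-Gal4 over a wild-type chromosome, with UAS-GFP::RpL10A opposite a UAS-Gal4 insertion that the strain list of the study describes as not functional. The background was mutant for white (w), and both UAS insertions carried the w+mC marker. The tag is thus made wherever fru P1-Gal4 is active, and fat body, photoreceptor and other head transcripts remained measurable in the pull-down.

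The P1 promoter of fruitless (fru) drives the sex-specific transcripts that make Fru M, a transcription factor of males, and marks neurons of courtship circuits in both sexes. A TRAP effect is the level in TRAP over the level in total mRNA of the same sex, and the interaction is the male TRAP effect minus the female TRAP effect on the log2 scale. The same number is also the sex difference (male over female) within TRAP minus the sex difference within total mRNA, so a gene can reach it through the ribosome-bound fraction, through the whole head, or through both. Many of the genes described here encode peptide hormones. In the fly brain such peptides are made by small groups of neurosecretory cells, among them the insulin-producing cells of the pars intercerebralis, and are released into the circulation or onto other neurons. In bulk libraries of this kind, fewer cells of a type and less RNA per cell cannot be told apart.

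Exon counts summed to between 15353672 and 25419045 per library, so that an exon without reads in a library may still have had a level of up to 3 counts, which is 0.118 to 0.195 CPM (counts scaled by the library total), where only counting error is considered. TMM scaling factors lay between 0.706 and 1.28 and were lowest in female total mRNA. Yp1, a yolk protein gene of female fat body, had 8367 to 35662 CPM in the female libraries and 7.72 to 672 CPM in the male ones, with the highest male value in male TRAP replicate 5. The 14 neuron markers summed to higher CPM in every TRAP library than in any total mRNA library, and the 23 photoreceptor markers tested to lower CPM. Of the markers of reproductive organs, 0 of 23 for ovary and eggshell and 3 of 35 for the male tract passed the filter on low counts. The male TRAP library and the female TRAP library nearest to total mRNA on the first principal component were replicates 5 and 3.

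Among 31299 exons of 8385 genes, the interaction passed a false discovery rate (FDR, the Benjamini-Hochberg adjusted p of the quasi-likelihood test of edgeR) of 0.2 in 19 exon entries (0.0607% of those tested) of 14 genes (0.167% of the genes tested). The TRAP effect was higher in males for 10 genes (0.119%) and higher in females for 4 genes (0.0477%). The 10 were the peptide precursor genes Crz, Ilp2, Ilp3, Ilp5, Dh44, Capa and ITP together with CG5160, CG42394 and cv-c, and the 4 were Orcokinin, SerT, CG6999 and CG32706. At an unadjusted p under 0.05, 2982 exons (9.53%) differed. Interactions were small for most exons, with a median absolute log2 fold change of 0.27 beside a median standard error (SE) of 0.30, whereas the TRAP effect itself had a median absolute log2 fold change of 0.51 in males and 0.72 in females.

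No tested exon of the driver and tag genes passed the test. The fru exon of lowest p (FBgn0004652, 3R 18425959 to 18427166 on the minus strand, coding and 3′ UTR) had 43.5, 52.9, 47.5 and 37.5 normalised CPM in male TRAP replicates 1, 2, 4 and 5, and 54.2, 50.1, 64.6 and 64.9 in female TRAP replicates 2, 3, 4 and 5. All 8 of these values lay above all 8 total mRNA values, which ranged from 22.6 to 26.9, and the interaction was -0.33 ± 0.20 (SE, FDR 0.587, quasi-likelihood test of edgeR). Further fru exon entries exceeded 2 CPM in all 4 female TRAP libraries and in no other library. The filter left them out, so they were not tested, and whether they lie in the sex-specifically spliced region was not examined. The described exon belongs to 7 of the 15 annotated fru transcripts. The tested exons that start at 18432564 and 18434235 belong to all 15. Whether any tested exon is specific to transcripts of the P1 promoter was not examined. For RpL10Ab, which encodes the ribosomal protein that was tagged, the exon of lowest p had an interaction of 0.60 ± 0.25 with an FDR of 0.496 and a lower level in male than in female total mRNA (log2 fold change -0.91).

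Without male TRAP replicate 5 and female TRAP replicate 3 together, an alternative added after the data were seen, 15 genes were called, of which 12 were among the 14. Cv-c was then not called (FDR 0.341) and Ilp5 did not pass the filter. With library totals as the only scaling, which moved the median interaction over genes from -0.09 to -0.30, 1635 genes were called, 44 higher in males and 1592 higher in females, and all 14 genes were among them. When same-numbered female libraries, whose deviations correlated (r 0.24 to 0.56), were treated as pairs, 22 genes were called, 11 in each direction, including all 14.

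Corazonin (Crz), a neurohormone of lateral neurosecretory cells, had the lowest p of all exons. Its second exon (FBgn0013767, 3R 14315360 to 14315716 on the plus strand, coding and 3′ UTR) had 59.0, 70.3, 71.1 and 36.5 normalised CPM in male TRAP replicates 1, 2, 4 and 5. In female TRAP replicates 2, 3, 4 and 5 it had 5.19, 5.42, 8.996 and 9.41. Total mRNA had 8.09, 9.80, 4.98 and 7.18 in male replicates 1 to 4, and 6.73, 7.41, 6.50 and 10.6 in female replicates 2 to 5. The 4 male TRAP libraries stood above all other libraries, while female TRAP overlapped the total mRNA of both sexes. The interaction was 3.08 ± 0.36 (FDR 0.00116). The sex difference was 3.03 ± 0.26 in TRAP and -0.05 ± 0.26 in total mRNA, and the mean in male TRAP was 8.17-fold that in female TRAP. The first exon (3R 14314854 to 14315150, 5′ UTR and coding) was also called, with an interaction of 2.12 ± 0.38.

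Insulin-like peptide genes of the insulin-producing cells, Ilp2, Ilp3 and Ilp5 on 3L, had higher TRAP effects in males. Ilp2 exon 1 (FBgn0036046, 3L 9799698 to 9799926 on the plus strand, 5′ UTR and coding) had 151, 160, 212 and 102 normalised CPM in male TRAP replicates 1, 2, 4 and 5, and 30.1, 18.7, 17.4 and 19.8 in female TRAP replicates 2 to 5. In total mRNA it had 5.65, 8.91, 8.59 and 4.77 in males and 6.52, 4.63, 4.40 and 18.4 in females. The TRAP libraries of the sexes did not overlap, and female total mRNA replicate 5 stood apart from the other female total mRNA libraries. The interaction of this exon was 3.14 ± 0.51 (FDR 0.048), with a sex difference of 2.86 in TRAP and -0.28 in total mRNA, and that of exon 2 was 2.89 ± 0.57 (FDR 0.118). Without female total mRNA replicate 5 the interaction of exon 1 was 2.44 (FDR 0.0359), and without a filter on low counts it was 3.12 and did not pass (FDR 0.365).

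Ilp3 (FBgn0044050, 3L 9801298 to 9801802 on the minus strand, coding and 3′ UTR) had 97.9, 122, 140 and 99.9 normalised CPM in male TRAP and 27.4, 29.0, 34.8 and 29.9 in female TRAP, again for replicates 1, 2, 4 and 5 and replicates 2 to 5, the order kept in all lists of values that follow (replicates 1 to 4 in male and 2 to 5 in female total mRNA). Its total mRNA level was 2.45 to 6.37 CPM in males and 3.82 to 10.1 CPM in females, the highest again in female replicate 5. The interaction of Ilp3 was 2.30 ± 0.41 (FDR 0.0503), from a log2 sex difference of 1.93 in TRAP and -0.37 in total mRNA. Ilp5 (FBgn0044048, 3L 9823349 to 9823639 on the minus strand, coding and 3′ UTR) had 43.1, 51.5, 55.6 and 24.2 normalised CPM in male TRAP and 12.2, 8.68, 14.6 and 10.2 in female TRAP, and 1.203 to 4.12 in total mRNA of either sex. Every male TRAP library exceeded every female TRAP library for both genes. The interaction of Ilp5 was 2.21 ± 0.46 with an FDR of 0.194, which passed only without male TRAP replicate 5, female total mRNA replicate 4 or male total mRNA replicate 2 among the 16 fits that left out 1 library (FDR 0.0526 to 0.492). The TRAP effect of all 3 insulin-like peptide genes was above 0 in females as well, with log2 values of 1.35, 2.44 and 2.32 for Ilp2, Ilp3 and Ilp5, beside 4.49, 4.74 and 4.53 in males. Ilp6, an insulin-like peptide gene of the fat body, had an interaction of -0.02 ± 0.35.

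Dh44, the precursor of a diuretic hormone related to corticotropin-releasing factor, is made by further cells of the pars intercerebralis. Its exon of lowest p (FBgn0012344, 3R 9648983 to 9650706 on the plus strand, coding and 3′ UTR) had 161, 174, 185 and 107 normalised CPM in male TRAP replicates 1, 2, 4 and 5, and 30.8, 27.4, 32.2 and 39.5 in female TRAP replicates 2 to 5. Total mRNA had 11.2, 22.4, 18.6 and 14.4 in males and 12.7, 12.6, 9.17 and 20.6 in females. Male and female TRAP did not overlap, male and female total mRNA did. The interaction was 2.0 ± 0.34 (FDR 0.049), with a sex difference of 2.27 ± 0.24 in TRAP and 0.27 ± 0.24 in total mRNA. All 3 tested entries of Dh44 were called, but they overlap in position and share reads. A further 2 exon entries of Dh44 exceeded 2 CPM in all 4 male TRAP libraries and in no other library and were left out by the filter.

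Capa, the precursor of diuretic and pyrokinin peptides, had 41.1, 45.5, 47.7 and 21.7 normalised CPM in male TRAP and 11.1, 11.3, 10.8 and 8.68 in female TRAP in its second exon (FBgn0039722, 3R 29913441 to 29913602 on the minus strand, coding). Its total mRNA ranged from 3.26 to 6.10 CPM. The interaction was 1.62 ± 0.32 (FDR 0.122), with a sex difference of 1.90 in TRAP and 0.28 in total mRNA. The third exon had a similar interaction of 1.78 ± 0.40 that did not pass (FDR 0.314). The call of Capa was lost without any 1 of male TRAP replicates 1, 2 and 4, female TRAP replicates 4 and 5, female total mRNA replicates 3 and 5, and male total mRNA replicates 1 and 4 (FDR up to 0.378).

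ITP, the precursor of ion transport peptide, an antidiuretic hormone of lateral neurosecretory cells and clock neurons, had a TRAP effect of opposite sign in the sexes, above 0 in males and below 0 in females. The called interval (FBgn0035023, 2R 24558030 to 24558961 on the plus strand, coding and 3′ UTR) was listed under 2 transcripts with identical counts. It had 55.3, 57.5, 59.97 and 43.8 normalised CPM in male TRAP and 17.5, 16.2, 18.2 and 18.6 in female TRAP. Total mRNA had 17.3, 36.1, 40.5 and 31.2 in males and 36.8, 29.5, 26.9 and 32.1 in females. Male TRAP was thus above, and female TRAP below, all 4 total mRNA libraries of the same sex, with log2 TRAP effects of 0.79 (FDR 0.00244) and -0.83 (FDR 0.00121). The interaction was 1.62 ± 0.28 (FDR 0.049), from a sex difference of 1.62 in TRAP and 0.00 in total mRNA. The other tested ITP exon (2R 24556284 to 24557699), which belongs to a different 3′ end of the gene and overlaps CG4622 on the opposite strand, had an interaction of 0.60 ± 0.40 (FDR 0.61).

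**Figure D1:**
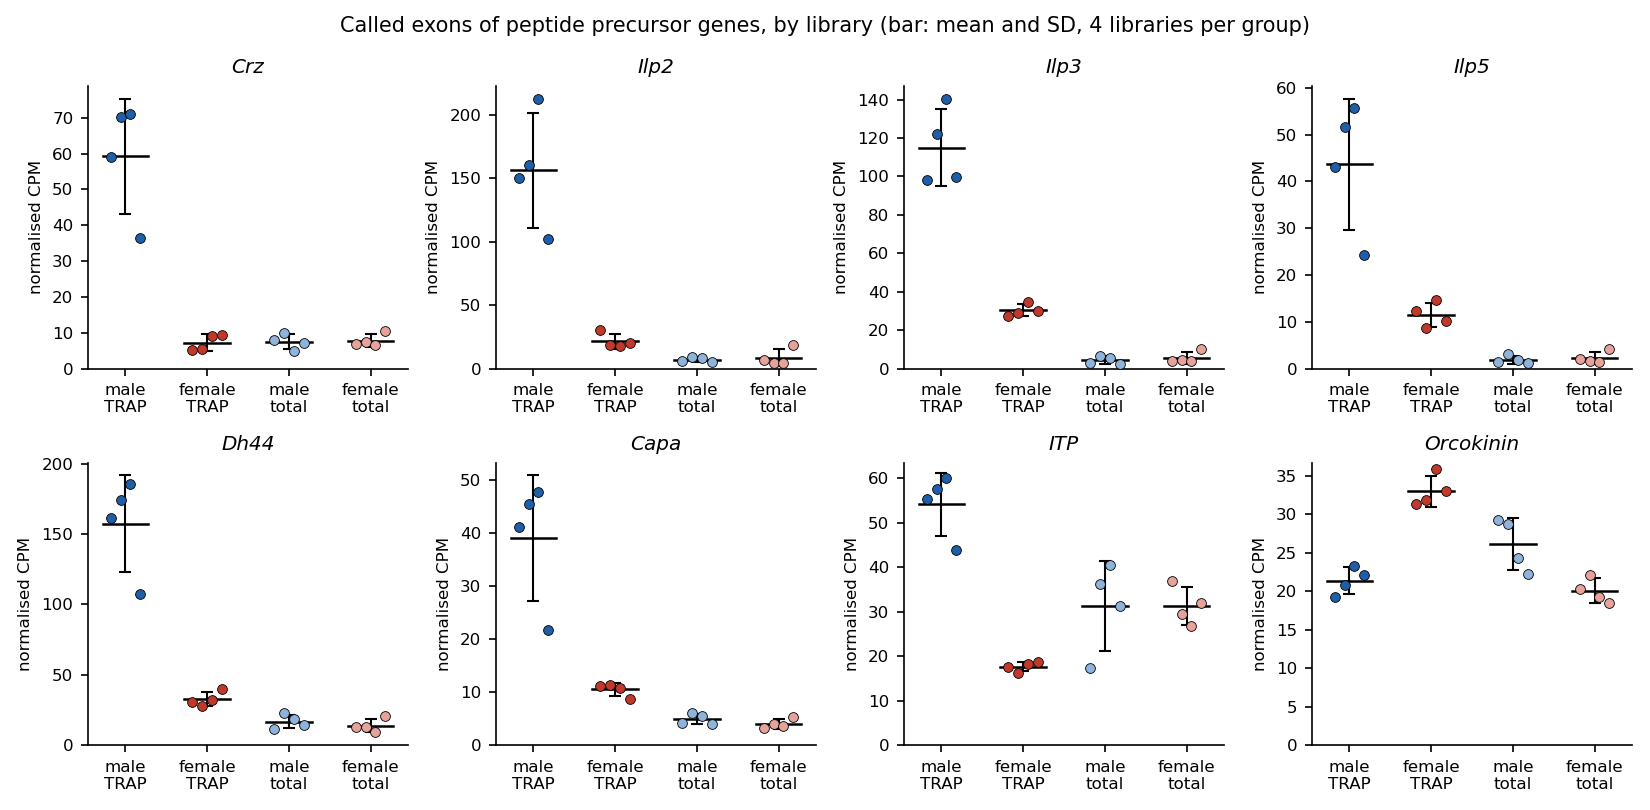
Normalised CPM (vertical axis, from 0) of the exon of lowest p of 8 called peptide precursor genes in the 16 libraries, with 1 point per library and bars for the mean and SD of 4 libraries. In Crz, Ilp2, Ilp3, Ilp5, Dh44, Capa and ITP all male TRAP points lie above all female TRAP points, and in Orcokinin all male TRAP points lie below them.

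Male TRAP replicate 5 had the lowest of the 4 male TRAP values for Crz, Ilp2, Ilp5, Dh44, Capa and ITP, and still exceeded every female TRAP library. The same library had the highest photoreceptor sum of the TRAP libraries (11604 CPM against 4195 to 7960), the highest fat body sum of the TRAP libraries (1601 CPM) and the highest male Yp1. The summed neuron markers overlapped between male TRAP (3934 to 4749 CPM) and female TRAP (3685 to 5248 CPM). The part of these differences in the peptide results was not tested. Crz, CG6999, Ilp2, Dh44, ITP, CG32706 and Ilp3 kept their calls in all 16 fits that left out 1 library.

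Of the remaining genes with a higher TRAP effect in males, CG5160 resembled Crz, with a TRAP effect of 2.56 in males and 0.43 in females. Its exon (FBgn0031906, 2L 7390984 to 7391503 on the minus strand, coding and 3′ UTR) had 23.3, 36.6, 36.5 and 22.1 normalised CPM in male TRAP and 5.38, 4.86, 7.69 and 9.30 in female TRAP. The total mRNA of both sexes ranged from 3.21 to 7.53 CPM and overlapped female TRAP. The interaction was 2.13 ± 0.39 (FDR 0.0606), with a sex difference of 2.13 in TRAP and 0.00 in total mRNA. The FDR was 0.202 without male TRAP replicate 2 and 0.211 without female total mRNA replicate 5.

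CG42394 had low levels throughout. In its called entry (FBgn0259740, 3R 10851285 to 10851488 on the plus strand, coding and 3′ UTR), male TRAP had 5.53 to 7.26 normalised CPM, female TRAP 2.84 to 3.37, and total mRNA 4.19 to 6.10. Its TRAP effect had opposite signs in the sexes, 0.50 in males and -0.74 in females, and the interaction was 1.24 ± 0.25 (FDR 0.122). The sex difference lay in TRAP (1.10) more than in total mRNA (-0.14). Its call remained only without male TRAP replicate 5, female TRAP replicate 3, female total mRNA replicate 4 or male total mRNA replicate 3.

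Crossveinless c (cv-c) was the 1 gene higher in males whose sex difference was larger in total mRNA. Its called exon (FBgn0285955, 3R 14393205 to 14393477 on the minus strand, coding) had 6.07, 5.53, 5.61 and 6.28 normalised CPM in male TRAP and 3.45, 4.59, 4.21 and 5.50 in female TRAP. Total mRNA had 2.82, 4.19, 2.99 and 3.73 in males and 6.68, 5.61, 5.93 and 7.06 in females. Neither pair of groups overlapped, and the order of the sexes was opposite in the 2 fractions. The interaction was 1.28 ± 0.26 (FDR 0.154), with a sex difference of 0.41 in TRAP (FDR 0.453) and -0.87 in total mRNA (FDR 0.01). Its call remained only without female TRAP replicate 5 or male total mRNA replicate 2.

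In all 4 genes with a higher TRAP effect in females, males were lower than females in TRAP and higher in total mRNA. The TRAP difference did not pass for CG6999 and CG32706 (FDR 0.408 and 0.596). The total mRNA difference did not pass for SerT (FDR 0.236). Orcokinin encodes a family of neuropeptides. Its last exon (FBgn0034935, 2R 23946959 to 23947340 on the minus strand, coding and 3′ UTR) had 19.3, 20.8, 23.3 and 22.1 normalised CPM in male TRAP and 31.3, 31.9, 35.9 and 33.0 in female TRAP. Male total mRNA had 29.3, 28.7, 24.3 and 22.2, and female total mRNA 20.3, 22.2, 19.2 and 18.4. Female TRAP was above all other libraries, and male total mRNA was above female total mRNA by a small margin. The interaction was -1.01 ± 0.19 (FDR 0.0887), from a sex difference of -0.63 ± 0.14 in TRAP (FDR 0.0307) and 0.38 ± 0.14 in total mRNA (FDR 0.118). The call was lost without male TRAP replicate 1 or 2, female TRAP replicate 4 or 5, female total mRNA replicate 4 or 5, or male total mRNA replicate 1 or 2 (FDR up to 0.289).

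SerT, the plasma membrane transporter that takes up serotonin, had 20.5, 27.7, 23.9 and 20.02 normalised CPM in male TRAP and 33.8, 33.8, 55.6 and 48.7 in female TRAP in its last exon (FBgn0010414, 2R 24404595 to 24405697 on the minus strand, coding and 3′ UTR). Male total mRNA had 14.3, 10.96, 14.6 and 10.1, and female total mRNA 10.0, 8.77, 9.37 and 9.42. The exon was above total mRNA in TRAP of both sexes, with log2 TRAP effects of 0.89 in males and 2.19 in females. The interaction was -1.30 ± 0.26 (FDR 0.122), with a sex difference of -0.90 in TRAP (FDR 0.0181) and 0.41 in total mRNA (FDR 0.236). Its call remained only without male TRAP replicate 2, female TRAP replicate 2 or 3, or male total mRNA replicate 2 or 4.

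CG6999 and CG32706, neighbours on the X chromosome, had nearly the same pattern, and their difference lay mainly in total mRNA. CG6999 (FBgn0030085, X 9088839 to 9089314 on the plus strand, coding and 3′ UTR) had 3.64, 2.58, 4.30 and 3.03 normalised CPM in male total mRNA and 0.788, 1.14, 1.02 and 1.504 in female total mRNA, with female counts of only 15 to 23 per library. In TRAP it had 6.73, 8.74, 7.89 and 5.404 in males and 8.09, 8.23, 11.7 and 13.04 in females. The sexes separated in total mRNA, where the male mean was 3.04-fold the female mean, and overlapped in TRAP. The interaction was -2.11 ± 0.34 (FDR 0.048), from a sex difference of 1.60 ± 0.26 in total mRNA (FDR 0.00145) and -0.51 ± 0.22 in TRAP (FDR 0.408). CG32706 (FBgn0052706, X 9087612 to 9088073 on the plus strand, coding and 3′ UTR) ranged from 2.697 to 4.61 normalised CPM in male and from 0.828 to 1.31 in female total mRNA, and from 5.95 to 9.49 in male and from 6.58 to 13.2 in female TRAP. Its interaction was -2.10 ± 0.37 (FDR 0.049), with a sex difference of 1.70 in total mRNA and -0.39 in TRAP. In both genes, as in SerT, female TRAP replicates 4 and 5 were higher than replicates 2 and 3. Whether these neighbours share near-identical sequence was not examined, so the split of reads between them is uncertain.

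**Figure D2:**
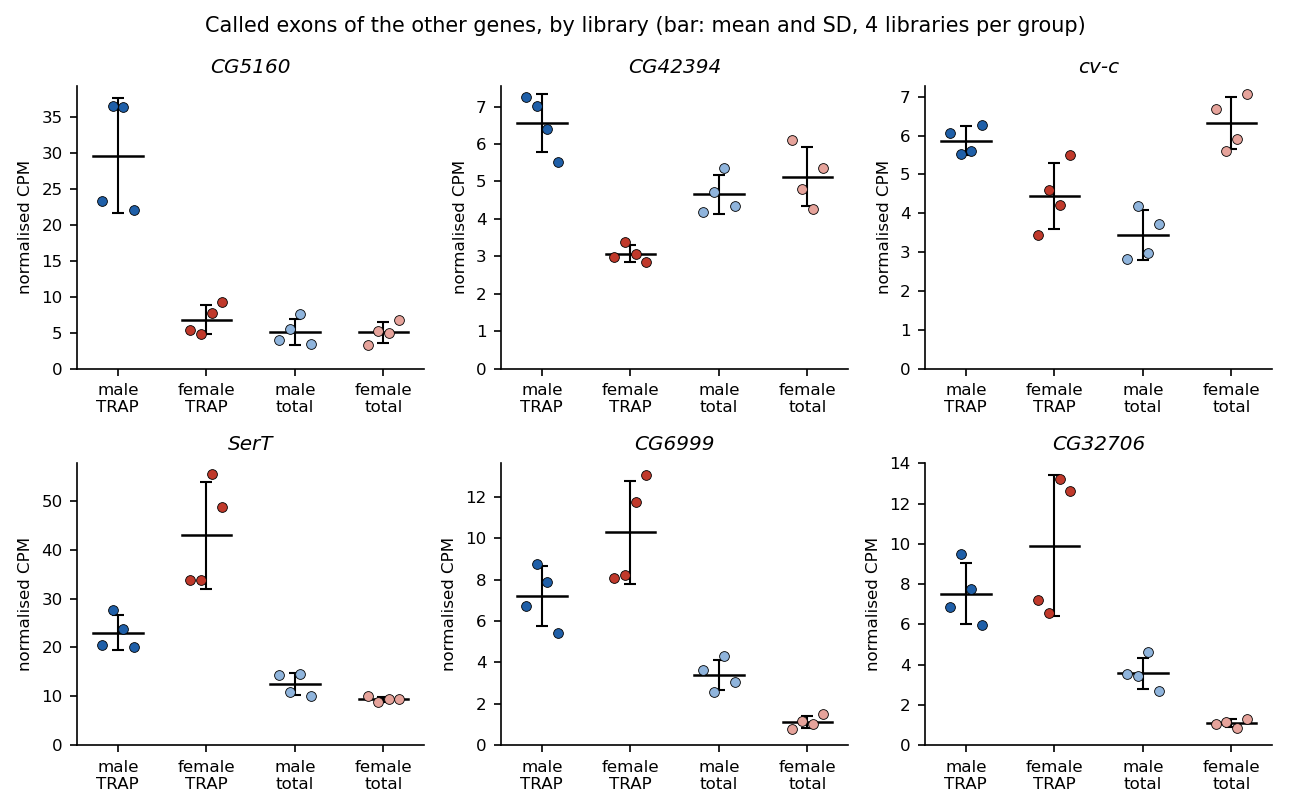
Normalised CPM (vertical axis, from 0) of the exon of lowest p of the 6 other called genes in the 16 libraries, with 1 point per library and bars for the mean and SD of 4 libraries. CG5160 and CG42394 separate the sexes in TRAP, CG6999 and CG32706 separate them in total mRNA, and cv-c and SerT separate them in both. The nearest points are 5.53 and 5.50 CPM for cv-c in TRAP, and 10.08 and 10.04 CPM for SerT in total mRNA. Neither of these 2 sex differences passed (FDR 0.453 and 0.236).

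Set side by side, the sex difference was larger in TRAP than in total mRNA for 11 of the 14 genes and larger in total mRNA for 3 (CG6999, CG32706 and cv-c). With exon counts summed per gene these numbers were the same for the 14 genes, but 71 genes were called, of which 44 had the larger sex difference in total mRNA and 27 in TRAP, so that the balance depended on the counting unit. Male and female TRAP libraries did not overlap for 12 of the 14 genes, and male and female total mRNA libraries did not overlap for 5. By FDR, the sex difference in TRAP passed for 11 of the genes (4.79% of all genes tested), and the sex difference in total mRNA for 4 (25.1% of all genes tested). These counts share their libraries with the interaction and are a description of where it arose. How often the sexes fail to overlap among all genes tested was not computed, so the overlap counts have no background. For 9 of the 14 genes TRAP exceeded total mRNA in both sexes at an FDR under 0.2 in the exon of lowest p. In these 9 genes the interaction was a difference in the degree of enrichment. Among them, female TRAP still overlapped female total mRNA in CG5160 (TRAP effect 0.43, FDR 0.183) and Ilp2 (1.35, FDR 0.00275). Over all genes, 81.5% had a TRAP effect in males (45.6% higher and 38.9% lower in TRAP, in at least 1 exon) and 90.7% in females (52.3% higher and 46.4% lower). The other 5 genes were Crz, whose TRAP effect was 2.97 in males and -0.11 in females (FDR 0.72), Orcokinin, with -0.29 in males and 0.72 in females, and ITP, CG42394 and cv-c, which were above total mRNA in male TRAP and below it in female TRAP.

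**Figure D3:**
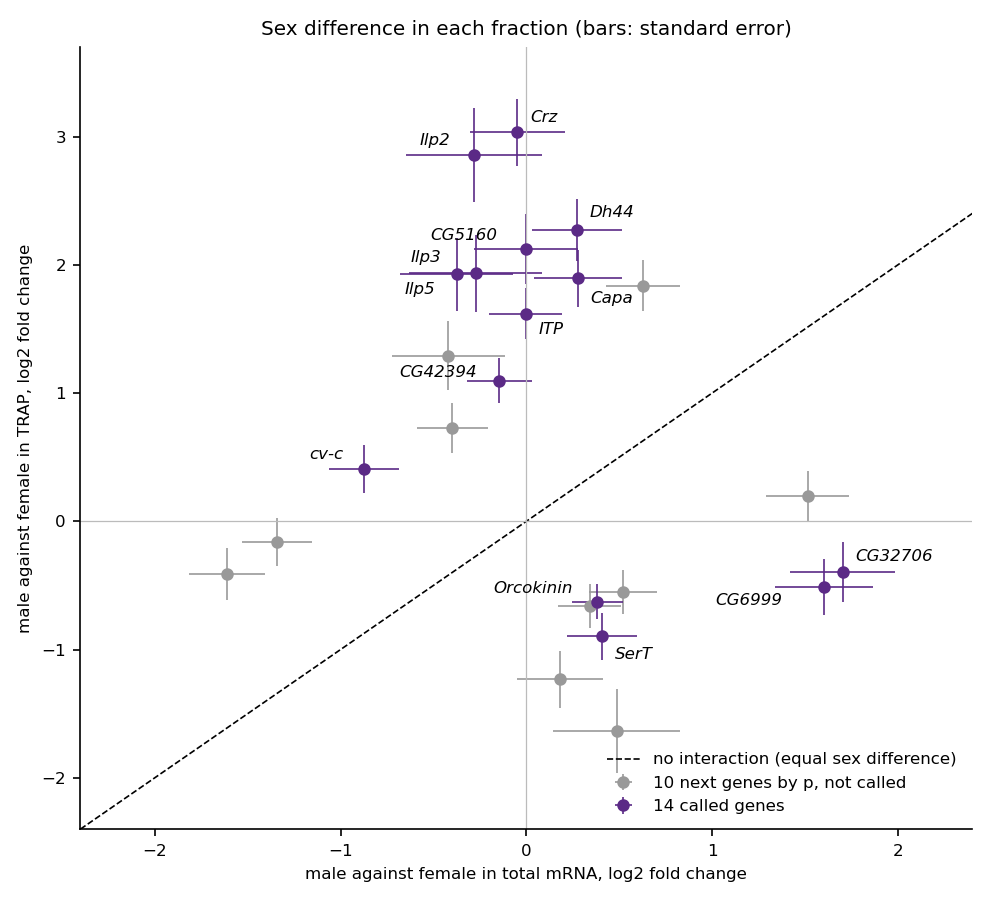
Log2 fold change of males over females in total mRNA (horizontal axis) and in TRAP (vertical axis) for the 14 called genes (purple) and the 10 genes of next lowest p (grey), with bars for the SE. A gene on the dashed line has no interaction. Crz, Ilp2, Ilp3, Ilp5, Dh44, Capa, ITP, CG5160 and CG42394 lie near 0 on the horizontal axis and high on the vertical one, whereas CG6999 and CG32706 lie far to the right.

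Within genes, the exons did not always share the interaction. All tested exons of Crz, Ilp2 and Dh44 were called. In SerT the interaction was -1.30 and -1.02 in the last 2 exons, -0.45 in the next, and -0.18 and -0.08 in the exons toward the 5′ end. In cv-c it ranged from 0.67 to 1.31 in the 5 tested exons toward the 3′ end, and from -0.12 to 0.34 in the 3 entries toward the 5′ end. In Orcokinin only the last exon was called, and the 4 other entries had interactions from -0.61 to -0.29.

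Position along the transcript moved with the interaction over the transcriptome. Over 4249 genes with at least 3 tested exons, the interaction of the most 3′ exon was lower than that of the most 5′ exon by a median of 0.37 (log2, 3′ minus 5′ -0.37), and the 3′ exon was the higher one in 16% of the genes. The same 3′ minus 5′ median was -0.18 for the sex difference in TRAP and 0.19 for that in total mRNA. Per library, the median 3′ minus 5′ difference of log2 CPM was 1.64 to 1.92 in male TRAP, 1.64 to 2.17 in female TRAP, 1.35 to 2.03 in male total mRNA and 1.27 to 1.56 in female total mRNA. Female TRAP exceeded female total mRNA in all libraries (exact two-sided permutation test, p = 0.0286, the smallest that 4 against 4 allows), while the sexes overlapped within TRAP (exact p = 0.286) and within total mRNA (exact p = 0.4). Without male total mRNA replicate 3, the highest of its group, the median of the interaction was -0.22. In SerT and Orcokinin all tested entries had interactions below 0 and the called exon was the last one, and in cv-c the gradient had the opposite sign to this median. The called exon of SerT belongs to 3 of 3 annotated transcripts, whereas that of Orcokinin belongs to 1 of 3. In Orcokinin, position and transcript form therefore cannot be told apart. In Crz the interaction was above 2 in both the 5′ and the 3′ exon. The part of this gradient in the calls of SerT, Orcokinin, cv-c and Crz was not tested.

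**Figure D4:**
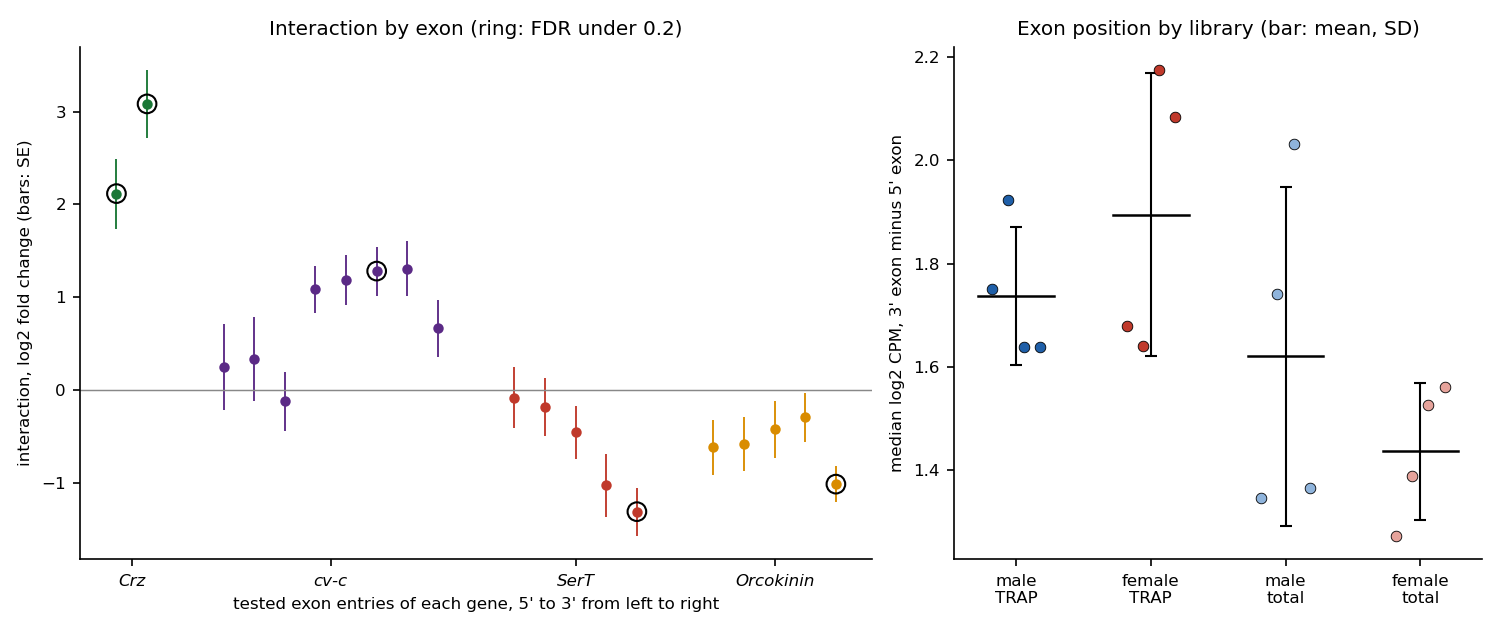
Left, interaction log2 fold change with SE for each tested exon entry of Crz, cv-c, SerT and Orcokinin, ordered from the 5′ to the 3′ end, with rings around entries at an FDR under 0.2. Right, median over genes of the log2 CPM of the most 3′ minus the most 5′ tested exon in each library, with bars for the mean and SD of 4 libraries. The 2 highest female TRAP points are replicates 4 and 5 (2.17 and 2.08).

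The neuropeptide genes were then examined as a list of 48 genes, of which 28 had an exon that passed the filter. The list held 8 of the 14 called genes, 7 higher in males (0.119% of all genes) and 1 higher in females (0.0477%). The median interaction over the 28, with 1 exon per gene, was 0.20 beside -0.09 over all genes, and 17 of the 28 were above 0. Under library totals both medians were lower, 0.00 for the list and -0.30 for all genes. In TRAP alone, 13 of the 28 had an exon higher in males and 4 had one lower in males at an FDR under 0.2 (2.35% and 2.46% of all genes), and in total mRNA 5 were higher in males and 0 lower (10.2% and 15%). In the exon of highest mean level, male TRAP was above female TRAP without overlap in 12 genes and below it in 4, whereas total mRNA of the sexes overlapped in 24. The share of all tested genes without such overlap was not computed, so these overlap counts have no background. The list was chosen with earlier results of these data known, so that its counts are a description.

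Summed over the 28 genes, peptide transcripts reached 2937 to 4229 normalised CPM in male TRAP and 1240 to 1943 in female TRAP, and 646 to 857 in male and 604 to 900 in female total mRNA. Ilp2 alone contributed 1087 to 1678 CPM in male TRAP and 142 to 207 in female TRAP. Without Ilp2 the sums were 1840 to 2636 and 1098 to 1736 CPM in male and female TRAP, which did not overlap, and without Ilp2 and Hug they were 1288 to 1882 and 902 to 1294 CPM, which overlapped.

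Other peptide genes did not pass the test and had interactions of either sign. Drosulfakinin (Dsk), a peptide related to cholecystokinin, had 71.4 to 150 normalised CPM in male TRAP and 30.8 to 36.3 in female TRAP, with an interaction of 1.21 ± 0.28 (FDR 0.339). Its total mRNA was also higher in males, at 18.5 to 23.8 against 10.6 to 17.9 CPM, with a log2 sex difference of 1.84 in TRAP and 0.63 in total mRNA. Hugin (Hug), a pyrokinin precursor of feeding circuits, had 45.0 to 90.7 normalised CPM in male TRAP and 21.3 to 34.2 in female TRAP in its second exon, with an interaction of 1.71 ± 0.41 (FDR 0.426).

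Allatostatin A (AstA) went the other way. Its exon of lowest p had 30.5, 33.8, 34.3 and 23.2 normalised CPM in male TRAP and 62.3, 59.1, 89.0 and 75.3 in female TRAP, beside 6.20 to 13.8 in total mRNA. The interaction was -1.41 ± 0.32 (FDR 0.332), with a sex difference of -1.23 in TRAP and 0.18 in total mRNA. Proctolin (Proc, -1.01 ± 0.33), myoinhibitory peptide (Mip, -0.74 ± 0.25) and the glycoprotein hormone subunit Gpb5 (-1.08 ± 0.32) also had interactions below 0 without passing the test. For Gpb5 the sex difference lay in total mRNA (1.06) and not in TRAP (-0.01). Interactions were close to 0 in FMRFa (0.00), Ilp6 (-0.02), Dh31 (0.05) and AstC (0.10), of which FMRFa, Dh31 and AstC were all higher in TRAP than in total mRNA in both sexes.

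The remaining genes among the 10 of next lowest p were not peptide genes. BBS9, a subunit of the BBSome of cilia, had -2.12 ± 0.47, with female TRAP values from 3.92 to 15.9 CPM that overlapped male TRAP. CG6867 (-1.32), Gar1, a protein of small nucleolar ribonucleoproteins (1.18), and Bin1 (1.204, an exon that overlaps sra on the other strand) had larger sex differences in total mRNA. Ten-a, a teneurin of synaptic partner matching (-1.07), trpl, a light-activated channel of photoreceptors (1.12), and Reph (-1.0) had the larger sex difference in TRAP. Their FDR lay between 0.314 and 0.468, and 7 of these 10 genes, peptides included, had the larger sex difference in TRAP.

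In other neuronal lists most interactions were below 0 and none passed the test (0 calls). Over all genes tested only 0.167% were called, so 0 calls does not set these lists, or those that follow, apart. Of 14 neuron markers, 0 had an interaction above 0, with a median of -0.58, and 0 were called. The difference lay in total mRNA, where the median sex difference was 0.46 and 8 of the 14 were higher in males at an FDR under 0.2, beside -0.09 in TRAP with 0 higher and 1 lower. Over all genes, 10.2% were higher in males in total mRNA, and in TRAP 2.35% were higher and 2.46% lower. Elav, an RNA-binding protein of all neurons, had an interaction of -0.64, and Rim, a scaffold of the active zone, one of -0.85 ± 0.30 (FDR 0.495). The summed neuron markers were 1750 to 2833 CPM in male and 1510 to 2065 CPM in female total mRNA.

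The dpr and DIP genes, which encode cell surface immunoglobulin proteins that pair during wiring, had 0 of 30 above 0, a median interaction of -0.62 and 0 calls. Their sex difference had a median of 0.45 in total mRNA (15 higher in males, 0 lower) and -0.19 in TRAP (0 higher, 1 lower). The shares higher and lower over all genes were 10.2% and 15% in total mRNA, and 2.35% and 2.46% in TRAP. Dpr14 and DIP-beta had -0.93 ± 0.35 and -0.93 ± 0.33, both at an FDR of 0.495. Nicotinic acetylcholine receptor subunits (1 of 10 above 0, median -0.66), synaptic vesicle and active zone genes (1 of 30, median -0.49) and voltage-gated and potassium channels (4 of 30, median -0.42) had 0 calls in each. All these medians stood below that of all genes (-0.09), which had 3279 of 8385 above 0, and stayed negative with RLE size factors and with library totals.

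Neuropeptide processing and dense-core vesicle genes had a median interaction of -0.30 (2 of 17 above 0) and neuropeptide receptors one of -0.25 (8 of 26), with 0 calls in both. IA-2, a protein of dense-core vesicles, had -0.95 ± 0.34, and amon, the prohormone convertase that cleaves peptide precursors, had -0.48 ± 0.27. Among 15 monoamine genes, where the median was 0.07 (-0.13 with library totals), SerT was the only call. The dopamine transporter DAT (-1.01 ± 0.32) and the vesicular monoamine transporter Vmat (-0.98 ± 0.32) had values of the same sign, and prt, a vesicular transporter of the mushroom body, had 0.90 ± 0.32, all at an FDR of 0.495.

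Of 80 cytosolic ribosomal protein genes, 79 had an interaction above 0, with a median of 0.31 and 0 calls. They were lower in TRAP than in total mRNA in both sexes (80 of 80), by a median log2 of -1.43 in males and -1.73 in females. Over all genes, 38.9% were lower in TRAP in males and 46.4% in females. In total mRNA 77 of the 80 were lower in males (median -0.72), and in TRAP 3 were (median -0.38). Over all genes, 15% were lower in males in total mRNA and 2.46% in TRAP. With library totals their median interaction was 0.11 beside -0.30 for all genes. Mitochondrial ribosomal proteins (median -0.13) and nuclear OXPHOS subunits (-0.08) stayed near the median of all genes. Markers of glia, photoreceptors, fat body and muscle had medians of 0.21, 0.03, 0.17 and 0.14, with 0 calls, and with library totals those of photoreceptors, fat body and muscle were below 0 (-0.18, -0.05 and -0.10), as was that of photoreceptors with RLE size factors (-0.01).

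**Figure D5:**
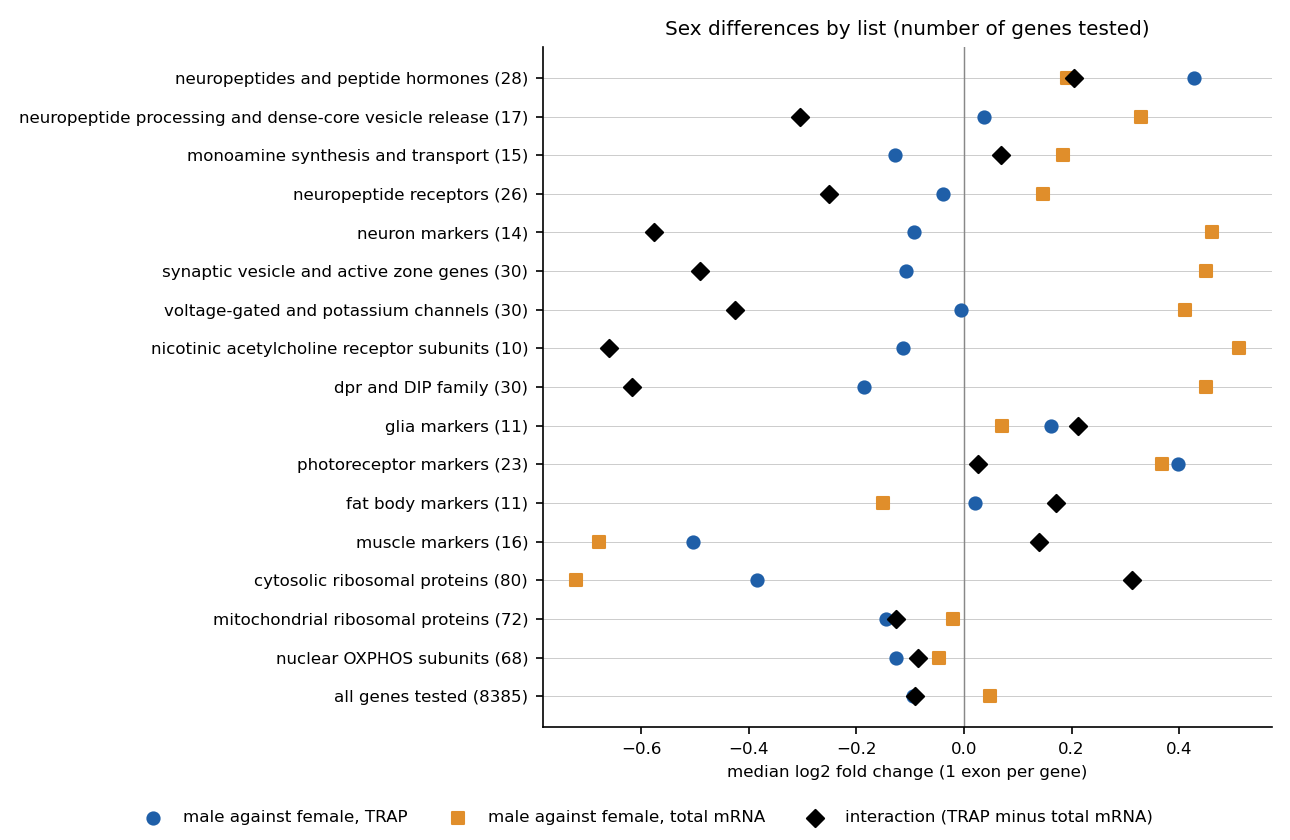
Median log2 fold change over the tested genes of 16 lists and of all genes (horizontal axis, 1 exon per gene), for males over females in TRAP (circles) and in total mRNA (squares) and for the interaction (diamonds). In neuron markers, synaptic genes, channels, nicotinic receptors and the dpr and DIP family the squares lie at 0.41 or more while the circles lie between -0.19 and -0.01, and in neuropeptides the circle lies farther from 0 than the square.

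The genes of sex determination and dosage compensation had 0 calls. msl-2, a subunit of the male-specific dosage compensation complex, had an interaction of 0.81 ± 0.24 (FDR 0.495) and was higher in males in TRAP (1.57) and in total mRNA (0.76). dsx, the transcription factor that acts beside fru in sexual differentiation, had 1.11 ± 0.43 (FDR 0.495), with a sex difference of -0.94 in TRAP and -2.06 in total mRNA. By chromosome arm the median interaction lay between -0.18 on chromosome 4 and -0.08 on X and 2L. The calls were 2 of 1436 genes on X, 1 of 1470 on 2L and 3 of 1732 on 2R. They were 3 of 1598 on 3L and 5 of 2068 on 3R, beside 14 of 8385 over all genes. The arms were not compared by a test.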

How the data were processed

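The authors deposited raw counts per exon entry for each library (featureCounts, uniquely mapped reads, STAR 2.7.2a, dm6), from poly(A)-selected, non-directional, single-end libraries of 100 bases. Counting did not use strand, and overlapping entries share reads. A deposited table of RPM values was not used. Exons with CPM above 2 in at least 10 of 16 libraries were kept, scaled with TMM, and fitted with the quasi-likelihood test of edgeR 4.0.16 (R 4.3.3) with 1 coefficient per group and Benjamini-Hochberg adjustment at FDR under 0.2, which replaces the exact test of the study because that test holds no interaction. Sex differences and TRAP effects come from the same fit. A gene was called through at least 1 exon and is described by its exon of lowest p. Named genes are all called genes, the 10 of next lowest p, fru, RpL10Ab and up to 4 of lowest p in a list, and others chosen after their values were seen. Members and lists were chosen with earlier results of these data known. The study calls such libraries biological replicates but does not say which came from separate collections, and p-values measure the spread between these libraries. The deviations of same-numbered TRAP and total mRNA libraries correlated with r from 0.24 to 0.56 in females and from -0.01 to 0.22 in males. The split by sex was not clean. Female TRAP replicate 3 (r 0.24) did not correlate best with its own number, and male TRAP replicate 4 (r 0.22) did. Positions are dm6, and symbols come from the annotation.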

Additional observations from a re-analysis of the deposited data

Results flagged for a closer look

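The TRAP effect differed between the sexes, by the interaction test, in Crz (3.08), Ilp2 (3.14), Ilp3 (2.30), Ilp5 (2.21), Dh44 (2.0), CG5160 (2.13), ITP (1.62), Capa (1.62), cv-c (1.28) and CG42394 (1.24), all higher in males, and in CG6999 (-2.11), CG32706 (-2.10), SerT (-1.30) and Orcokinin (-1.01), all higher in females (log2, quasi-likelihood test of edgeR, FDR under 0.2).

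Some libraries lay far from the other 3 of their group, as about 1 in 20 groups does by chance (9 such libraries or sums in 132 groups of 4). Female total mRNA replicate 5 had 18.4 normalised CPM for Ilp2 against 4.40 to 6.52, 10.1 for Ilp3 against 3.82 to 4.52, and a lower fat body sum (2677 against 3159 to 3219). Without this library the interactions of Ilp2 and Ilp3 were 2.44 and 1.86 and were still called. Male TRAP replicate 5 had 672 CPM of Yp1 against 7.72 to 118, 449 of Yp2 against 4.86 to 69.0, and 634 of Yp3 against 33.5 to 99.5. Male TRAP replicate 1 had 118 CPM of roX2, an RNA of dosage compensation, against 27.4 to 38.8. Female total mRNA replicate 2 had a higher muscle sum (1372 against 605 to 705), and female total mRNA replicate 4 had more Yp3 (29279 against 22798 to 23408).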

How the results depend on the processing

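The 14 genes kept the sign of their interaction in every alternative in which they were tested. Against 14 genes and 19 exons, the likelihood ratio test of edgeR called 60 genes and 79 exons, FDR under 0.05 called 6 and 10, and sums of exon counts per gene called 71 genes. Library totals as the only scaling called 1635 genes and 2992 exons. DESeq2 called 139 genes and 229 exons, but gave an adjusted p for only 3986 of the 31299 exons and for none of those describing 12 of the 14 genes. Without its filter on mean counts, added later, DESeq2 called 102 and 134, with all 14 genes. The replicate block called 57 genes and 88 exons, and in females only, added later, 22 and 29, with all 14 genes in both. Leaving out 1 library at a time gave 8 to 17 genes and 12 to 21 exons, with the fewest genes without male TRAP replicates 1 or 2 or female TRAP replicate 4 (8 each). RLE size factors (13 genes), limma voom (11), other filters (12 to 16) and 1 exon per gene (16) were within 1.5 times. Among them, the unfiltered fit lost Ilp2 and Orcokinin (FDR 0.365 each), cv-c (0.365), CG42394 and Ilp5 (0.416 each), limma voom lost SerT (0.204), Capa and Ilp5 (0.355 each), RLE lost Ilp5 (0.254), and 1 exon per gene lost CG42394 (0.271) and cv-c (0.513). The 3′ minus 5′ median stayed negative without any 1 library (-0.47 to -0.22). Depth limits CG6999 and CG32706, with few female total mRNA counts.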

Other observations

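When the exon counts of a gene were summed, 71 of 9126 genes passed the interaction at FDR under 0.2 (quasi-likelihood test of edgeR), 38 higher in males and 33 higher in females, and all 14 genes described above were among them. Of the 71, the sex difference was larger in total mRNA for 44 and larger in TRAP for 27. The genes named here were chosen after their values were seen.

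Among genes higher in females, acj6, a POU homeodomain transcription factor of olfactory neurons, had an interaction of -0.96 ± 0.20 with a sex difference of -0.75 in TRAP and 0.21 in total mRNA. Vmat (-0.92 ± 0.25) and the serotonin receptor gene 5-HT1A (-0.60 ± 0.16) joined SerT (-0.73 ± 0.16), but the sex difference of 5-HT1A lay in total mRNA (0.42 beside -0.17 in TRAP), while that of Vmat lay in TRAP (-0.68 beside 0.24). The cell surface genes beat-Vc (-0.84) and beat-VII (-0.97) had larger sex differences in total mRNA (0.45 and 0.59) than in TRAP (-0.39 and -0.38).

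Of the 38 genes higher in males, 25 had the larger sex difference in total mRNA, and 5 of them are given as examples with no test of a shared function. They were the alanyl-tRNA synthetase AlaRS (0.62 ± 0.14), the chaperonin subunit CCT3 (0.68 ± 0.17), the translocon genes Sec61alpha (0.59 ± 0.14) and TRAM (0.94 ± 0.21), and the nucleolar protein Fib (0.76 ± 0.20). Males were lower than females in total mRNA for these 5 genes, with log2 sex differences of -0.69, -0.79, -0.74, -1.19 and -1.05 in that order, beside -0.08, -0.11, -0.14, -0.25 and -0.29 in TRAP. Dsk (1.27 ± 0.26, FDR 0.0781) and AstA (-1.11 ± 0.28, FDR 0.175), which missed the threshold by exon, passed it by gene sum, with a sex difference of 1.89 and -1.08 in TRAP.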
